A study of Mus musculus with 12 samples.

Results

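The genes described here carry fat from the blood across the capillary wall: the lipoprotein lipase system (Gpihbp1 and Lpl), membrane receptors for fatty acids and lipoproteins (Cd36 and Scarb1), carriers and transporters of fatty acids (Fabp4, Fabp5 and Slc27a3) and transcription factors known to regulate them (Pparg, Meox2 and Tcf15). The group was put together by function, with the difference between the muscles already known, and every probe set was taken whose only gene symbol in the platform table is one of these 10. That gave 20 probe sets for 10 genes, of 18193 named genes on the array. They were measured in side population cells, the cells of a dissociated tissue that pump out the dye Hoechst, from extraocular muscle (EOM, the muscles that move the eye, 6 preparations) and from tibialis anterior (TA, a hind limb muscle, 6 preparations) of mice. Each preparation was isolated separately and hybridized to its own Affymetrix array, and the arrays are called by the numbers in the labels (EOM 0, 1, 2, 3, 5 and 6, and TA likewise). Strain, age, sex, and any allele or treatment of the mice are not given in the labels used here.

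In muscle, triglyceride-rich lipoproteins dock at the inner face of capillaries, where lipoprotein lipase splits their fat. The enzyme is made by muscle fibres, adipocytes and other cells under the endothelium and is carried across it by the anchor protein GPIHBP1. The freed fatty acids enter the endothelial cell with the help of the scavenger receptor CD36 and pass through it bound to the small carriers FABP4 and FABP5. PPARG, a nuclear receptor activated by fatty acids, and the partner factors MEOX2 and TCF15 are known to switch on Cd36 and other uptake genes in capillary endothelium of heart and skeletal muscle. Several of these genes are also used outside endothelium, Lpl, Fabp4, Cd36 and Pparg in adipocytes and macrophages.

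Most arrays were alike in overall signal, with a median over all probe sets of 31.2 to 43.4, and 3 stood apart, EOM 1 at 87.2, TA 3 at 69.6 and TA 5 at 63.2. Array signals carry no counts, so the precision of each value rests on the 6 arrays of a group. Differences are given as EOM minus TA of log2(signal + 16), with the moderated standard error (SE) of the limma fit, and a gene stands as its brightest tested probe set unless another is named. Signals of different probe sets are not comparable as amounts of RNA. Since the choice of the genes used this contrast, their differences are a description and no p-value is given for them.

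Of the 10 genes, 9 had lower signal in EOM side population cells on every array, and the exception was Slc27a3. In all, 9 of the 10 genes were lower past the limma threshold (adjusted p under 0.05), and 9 had groups without overlap and EOM lower. Among all 13067 genes tested 6.81% were called lower and 4.05% higher, and groups did not overlap in 4.8% with EOM lower and in 2.33% with EOM higher. By probe set, 18 of the 19 tested were called lower and 19 of all 20 had no overlap, beside 5.03% called lower, 3.2% called higher, 3.53% without overlap and EOM lower, and 1.9% without overlap and EOM higher among 27022 probe sets. Because the genes were chosen on this contrast, nothing is read from these counts. Their median log2 difference was -3.24, beside -0.04 for all genes tested. In RNA from a pool of sorted cells, fewer cells of a type and less of the RNA in each cell cannot be told apart.

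**Figure D1:**
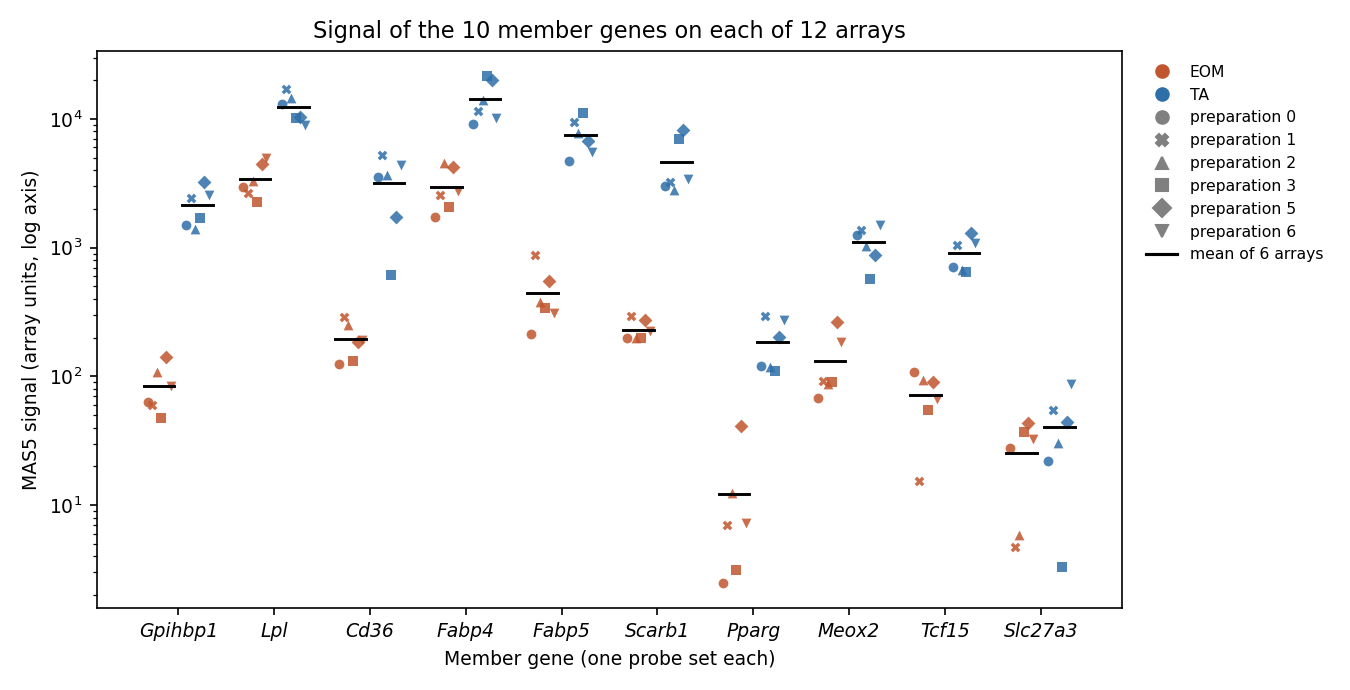
MAS5 signal (array units, log axis) of the 10 genes, 1 probe set each, on 6 EOM arrays (left of each pair) and 6 TA arrays (right); marker shapes give the preparation number and bars the means. Groups are apart for 9 genes, and for Slc27a3 both lie at or under 86.7 and overlap; TA 3 is the low TA point of Cd36 and Meox2.

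Gpihbp1 encodes the protein that carries lipoprotein lipase to the capillary lumen and holds it there. Its signal was 47.2 at the lowest, 73.5 at the median and 141.5 at the highest in EOM, against 1391, 2068 and 3261 in TA. The lowest TA array was far above the highest EOM array, and the mean in EOM was 3.91% of that in TA. The log2 difference was -4.44 ± 0.29 (SE), the largest of the 10 genes by the probe sets used. Its spread within a group was small beside that gap, with a standard deviation (SD) of 0.49 in EOM and 0.49 in TA on the log2 scale (n = 6 each).

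Lpl, the lipase itself, differed less and stayed bright in both muscles. The signal ran from 2281 through a median of 3133 to 4942 in EOM, against 8921, 11699 and 17029 in TA. EOM arrays lay below all TA arrays, yet the EOM mean was still 27.8% of the TA mean, a log2 difference of -1.86 ± 0.27 (SE). A second Lpl probe set, at 89.3 to 257.5 in EOM and 353 to 1091 in TA, gave nearly the same difference (-1.83 ± 0.29, SE).

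Cd36, the fatty acid receptor, was read by 3 probe sets, all far lower in EOM. The brightest had 125 at the lowest, 187 at the median and 291 at the highest in EOM, against 612, 3583 and 5200 in TA. TA 3 held the lowest TA value in each of them, and TA 5 the next lowest in the first pair; without TA 3 the log2 difference of the brightest went to -4.10, against -3.69 ± 0.43 (SE) with all arrays. The other probe sets were at -4.59 ± 0.43 and -4.17 ± 0.32 (SE), so the 3 lay within 0.90 of each other. In the last of these EOM 1, at 148, stood above the remaining EOM arrays, at 26.5 to 48.1.

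Scarb1 encodes SR-BI, the receptor for high-density lipoprotein that also moves lipoproteins through endothelial cells. By its brightest probe set the signal was 198 at the lowest, 211.6 at the median and 292 at the highest in EOM, against 2784, 3327 and 8237 in TA. The EOM arrays were close together (SD of 0.24 on the log2 scale) and the TA arrays spread wider (0.67), with TA 3 and TA 5 the highest. The log2 difference was -4.10 ± 0.29 (SE), and the EOM mean was 5.02% of the TA mean. Its other probe sets gave -4.46 ± 0.28 and -3.37 ± 0.33 (SE). The array TA 3 was high in the first pair, whose names end in _x_at, the mark Affymetrix gives to probe sets that may bind other transcripts, but it was the lowest TA array in the remaining one, at 486.

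Fabp4 and Fabp5 encode small fatty acid binding proteins of capillary endothelium, adipocytes and macrophages. For Fabp5 the signal was 214 at the lowest, 360 at the median and 873 at the highest in EOM, against 4685, 7225 and 11155 in TA. That is a log2 difference of -4.11 ± 0.32 (SE), and a dimmer Fabp5 probe set gave -3.54 ± 0.42 (SE). The groups were apart in both.

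Fabp4 was the gene whose probe sets disagreed most in size, though not in direction. Its brightest probe set had 1720 at the lowest, 2673 at the median and 4511 at the highest in EOM, against 9149, 12758 and 21533 in TA, a log2 difference of -2.28 ± 0.31 (SE). The next brightest Fabp4 probe set had 57.5, 206 and 498 in EOM, against 4046, 11438 and 18310 in TA. There the difference was -5.53 ± 0.45 (SE), and the EOM mean was 2.28% of the TA mean, against 20.7% by the brightest probe set. Of the remaining pair, one was at -2.77 ± 0.32 (SE), and the other, at 1.1 to 13.3 in EOM and 23.3 to 166.9 in TA, fell under the level filter and was not tested. The range over the 4 Fabp4 probe sets was 3.32 log2 units, against at most 1.09 for any other gene of the group, so the size of the Fabp4 difference depends on the probe set.

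**Figure D2:**
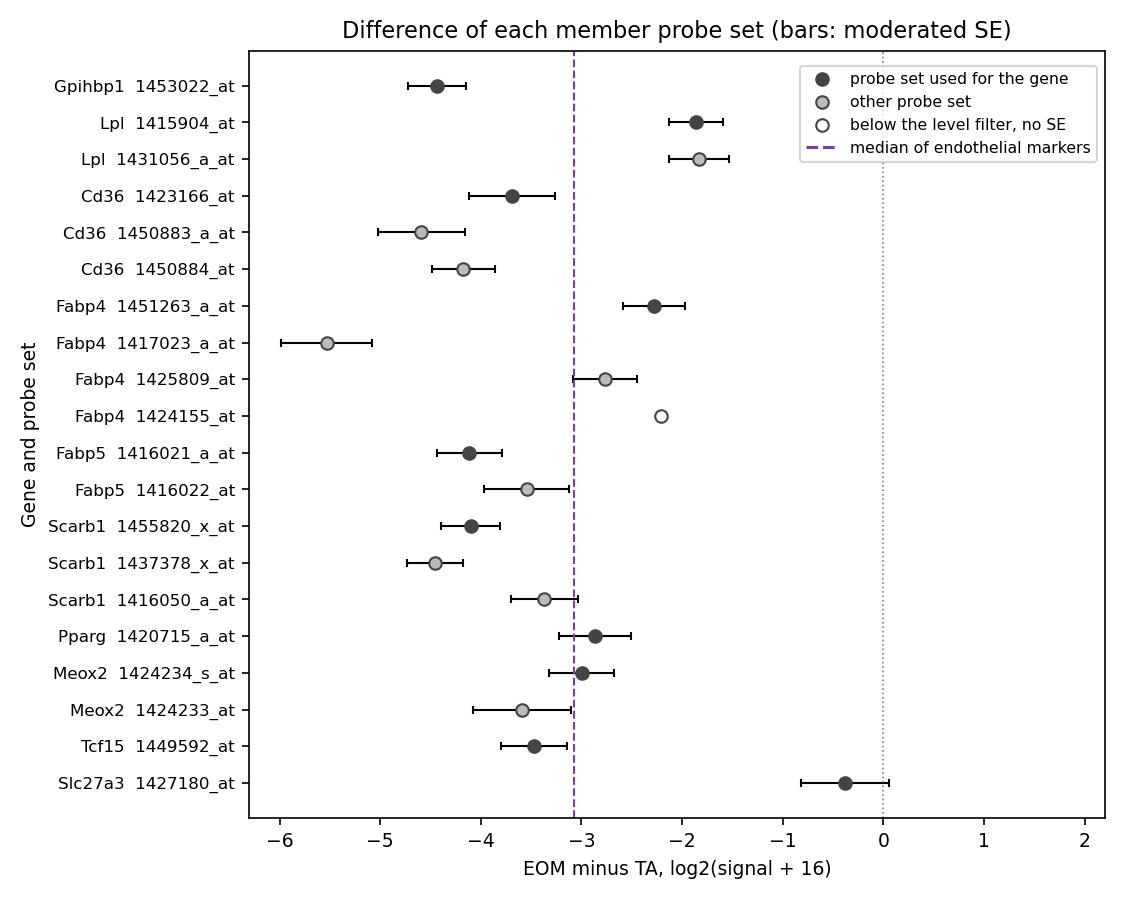
EOM minus TA on the log2(signal + 16) scale for all 20 probe sets, with the moderated SE; dark points are the probe sets used for the genes, the open point was below the level filter, and the dashed line is the median of the endothelial markers (-3.08). The 4 Fabp4 probe sets spread over 3.32 units while the Lpl probe sets sit at -1.86 and -1.83.

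Fabp4 and Fabp5 lie in a cluster of related genes on mouse chromosome 3. In the RefSeq annotation (GRCm38.p6) the protein-coding genes follow each other as Pag1, Fabp5, Pmp2, Fabp9, Fabp4, Fabp12 and Impa1. These neighbours were looked up after the values of Fabp4 and Fabp5 were known. The peripheral myelin fatty acid carrier Pmp2 averaged 9.82 ± 9.07 in EOM and 28.0 ± 35.5 in TA, and Fabp12 averaged 37.2 ± 43.9 in EOM and 19.7 ± 18.9 in TA (SD, n = 6 each). Fabp9 averaged 3.55 ± 2.95 in EOM and 59.9 ± 39.99 in TA (SD, n = 6 each). All 3 were under the level filter and were not tested. The flanking genes Pag1, a membrane adaptor (-0.66 ± 0.28, SE, limma adjusted p = 0.194), and Impa1, an inositol monophosphatase (0.07 ± 0.27, SE, limma adjusted p = 0.942), did not pass.

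Slc27a3, a member of the family of fatty acid transport proteins with acyl-CoA synthetase activity, was the one gene whose groups overlapped. Its signal was 4.7 at the lowest, 30.1 at the median and 43.4 at the highest in EOM, against 3.3, 37.5 and 86.7 in TA. Both muscles gave low signal, TA 3 had the lowest value of all and EOM 1 the next. The log2 difference was -0.38 ± 0.44 (SE), less than its own error.

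Pparg, the fatty acid sensing nuclear receptor, was dim in both muscles and at the low end of the scale in EOM. The signal was 2.5 at the lowest, 7.1 at the median and 41.0 at the highest in EOM, against 110, 162 and 292 in TA. No EOM array reached the lowest TA array. The files used here hold no detection calls, so whether the EOM signal of Pparg is above background was not tested. The log2 difference of -2.86 ± 0.36 (SE) depends on the constant added before the logarithm, and it was -4.26 with 1 and -1.67 with 64 in place of 16.

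Meox2 is a homeobox factor of muscle and vascular precursors. The signal was 67.9 at the lowest, 91.5 at the median and 264.5 at the highest in EOM, against 575, 1139 and 1503 in TA. TA 3 was the lowest TA array, and EOM 5 the highest EOM array. The log2 difference was -3.00 ± 0.32 (SE), and a second Meox2 probe set gave -3.59 ± 0.49 (SE). In that second probe set TA 3, at 124, stood far under the other TA arrays, at 631 to 1170, and without it the difference went to -4.04.

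Tcf15, a basic helix-loop-helix factor first known from the somites, had 15.3 at the lowest, 79.0 at the median and 109 at the highest in EOM, against 643, 877 and 1294 in TA. EOM 1 was the low EOM array. The log2 difference was -3.47 ± 0.33 (SE), and -3.20 without EOM 1. Its EOM mean was 7.88% of its TA mean, and that of Meox2 was 11.9%.

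The arrays did not rank alike for all probe sets. TA 3 was the lowest TA array in 12 of the 20 probe sets and the highest in 3, and TA 6 was the highest in 10. Among EOM arrays, EOM 0 was the lowest in 9, and EOM 1 and EOM 5 were each the highest in 8. EOM 1 was also the lowest in 5, so its place depended on the probe set.

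RefSeq promoter windows, from 250 bases before to 50 after the start (GRCm38.p6), were at hand for 4 of the 10 genes, Cd36, Pparg, Meox2 and Slc27a3. The windows of Cd36 (chr5:17835847-17836146, minus strand) and Meox2 (chr12:37108290-37108589, plus strand), which were lower in EOM, are shown with that of Slc27a3 (chr3:90389889-90390188, minus strand), whose groups overlapped. All are 5′ to 3′ on the strand of the gene. Capitals mark matches on either strand to the nuclear receptor half-site AGGTCA, the TATA box TATAAA, the CCAAT box and the GC box GGGCGG.
Cd36: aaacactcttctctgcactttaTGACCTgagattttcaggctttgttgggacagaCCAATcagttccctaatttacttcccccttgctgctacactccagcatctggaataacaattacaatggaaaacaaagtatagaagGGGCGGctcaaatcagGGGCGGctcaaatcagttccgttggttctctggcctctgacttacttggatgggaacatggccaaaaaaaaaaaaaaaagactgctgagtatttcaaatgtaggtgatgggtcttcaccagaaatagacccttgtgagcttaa
Meox2: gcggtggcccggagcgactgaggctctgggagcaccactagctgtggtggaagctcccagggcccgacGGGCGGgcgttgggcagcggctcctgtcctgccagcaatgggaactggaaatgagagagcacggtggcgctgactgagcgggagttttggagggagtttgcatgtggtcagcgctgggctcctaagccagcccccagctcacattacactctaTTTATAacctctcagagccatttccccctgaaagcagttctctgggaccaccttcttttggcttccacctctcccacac
Slc27a3: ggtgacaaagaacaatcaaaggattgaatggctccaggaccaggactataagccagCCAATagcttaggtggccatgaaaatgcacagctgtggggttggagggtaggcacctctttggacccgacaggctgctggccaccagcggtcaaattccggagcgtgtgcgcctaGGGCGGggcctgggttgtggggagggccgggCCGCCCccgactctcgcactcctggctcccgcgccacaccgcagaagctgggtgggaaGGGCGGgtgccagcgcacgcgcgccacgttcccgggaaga
The Cd36 window held 1 AGGTCA match, 228 bases before the start, 1 CCAAT box and 2 GC boxes. Meox2 had 1 TATAAA match, on the opposite strand 29 bases before the start, and 1 GC box, and Slc27a3 had 1 CCAAT box and 3 GC boxes. AGGTCA was found in 16.3% of all 32851 promoter windows, TATAAA in 13.6%, CCAAT in 37.4% and GGGCGG in 35.7%. Of the 3 Pparg windows 2 held 1 AGGTCA match each. The E-box CANNTG, found in 72.3% of windows and not set in capitals, had 2 matches in Cd36, 1 in Meox2 and 1 in Slc27a3, and CCGGAAG, an ETS motif found in 8.86%, had 0 in all 3. No matches overlapped each other, and a match is a run of letters, not a site shown to be bound.

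Endothelial markers moved with the group. Of 17 endothelial markers tested 15 fell in EOM and 0 rose, with 16 lower and 0 higher unadjusted (limma, median log2 difference -3.08), and all 5 markers of capillary endothelium fell. Unadjusted counts, here and below, take limma p under 0.05 before adjustment. Their share over all genes is not given here, so nothing is read from them. Summed signal of the endothelial markers was 2421 to 4100 in EOM and 16882 to 41772 in TA, and none was at 0 in either. Among them Cdh5, the cadherin of endothelial junctions, averaged 66.3 ± 22.9 in EOM and 1149 ± 664 in TA (SD, n = 6 each), a log2 difference of -3.65 ± 0.36 (SE, limma adjusted p = 3.67e-06). The called endothelial markers with the largest differences were Egfl7 (-4.75), the surface receptor Cd93 (-4.10) and Vwf (-4.00). Among capillary markers Timp4, an inhibitor of metalloproteinases, was at -6.10 ± 0.41 (SE), the water channel Aqp1 at -5.07 and the carbonic anhydrase Car4 at -2.35. Pecam1, an adhesion molecule of endothelium, was at -1.84 ± 0.60 (SE, limma adjusted p = 0.0702), passing in 5 of 22 alternatives. The angiopoietin receptor Tek, named after its value was seen as the other marker that did not pass, was at -0.18 (limma adjusted p = 0.904). The part that the number of endothelial cells has in the differences above was not tested.

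Set against the mean log2 signal of the 17 endothelial markers on the same array, the genes fell into different places. The markers differed among themselves too, from Egfl7 at -4.75 to Tek at -0.18. The differences of all 10 genes, by the probe sets used for them, lie inside that range. Its upper end is Tek alone, the next marker is Pecam1 at -1.84, and Slc27a3 at -0.38 lies between them. The second brightest Fabp4 probe set, at -5.53, lies outside the range. Over EOM arrays the marker mean was 7.05 ± 0.36, against 10.1 ± 0.66 over TA arrays (SD, n = 6 each), a difference of -3.05. It ran from 6.60 to 7.53 in EOM and from 9.10 to 10.9 in TA, without overlap. A gene of equal signal in both muscles therefore comes out higher in EOM on this scale. Relative to the marker mean Gpihbp1 differed by -1.39 log2 units, with -1.13 to -0.07 in EOM and 0.43 to 1.64 in TA, and the groups did not overlap. Fabp5 (-1.07), Scarb1 (-1.05) and Cd36 (-0.64) also had lower means in EOM, but their groups overlapped. Tcf15 (-0.43), Meox2 (0.05) and Pparg (0.18) have no settled sign, since it turned in 2, 7 and 2 of the alternatives run, for Pparg to -0.95 with an added constant of 1. Lpl was higher relative to them in EOM by 1.19, at 4.01 to 5.56 in EOM and 2.22 to 4.28 in TA, with some overlap.

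Fabp4 took either sign by probe set, 0.77 by the brightest, with overlap, and -2.49 by the next, without; the mean of its probe sets gave -0.82. Without overlap and with EOM lower was also 1 of the dimmer Cd36 probe sets (-1.55). Slc27a3 was higher by 2.66 without overlap, at the low signal given above. Before the marker mean was taken off, its difference was -0.38 with overlap, so its rise comes from the subtraction. These relative values come from the same contrast as the choice of the genes and carry no test.

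**Figure D3:**
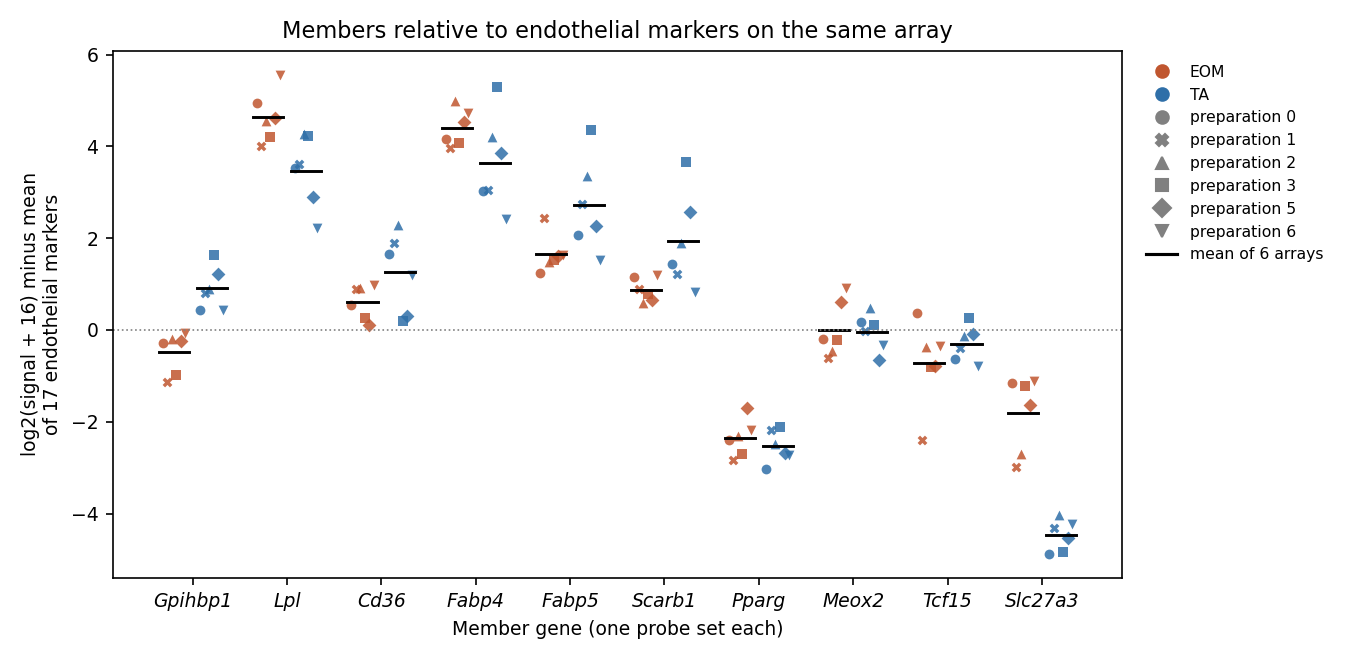
Log2(signal + 16) of each gene minus the mean of 17 endothelial markers on the same array, for 6 EOM arrays (left of each pair) and 6 TA arrays (right), with bars at the means. Gpihbp1 lies lower in EOM without overlap, Lpl lies higher in EOM with some overlap, and Meox2 and Pparg overlap.

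Other cells that use these genes were checked by their markers. Of 11 adipocyte markers 8 had a named probe set and 1 was bright enough to be tested, Slc2a4, the insulin-responsive glucose transporter that muscle also uses (-1.10 ± 0.29, SE, limma adjusted p = 0.0214). That call was lost in 7 of 22 alternatives. The sum of the 8 was 113 to 425 in EOM and 161 to 436 in TA. Adiponectin, Adipoq, which defines adipocytes, was low in both muscles, at 6.3 to 27.9 in EOM and 6.6 to 51.6 in TA. Of 9 macrophage markers tested 4 fell, 0 rose (7 and 0 unadjusted) and 5 did not pass, with a median of -1.63. The sum of all 14 was 348 to 1278 in EOM and 989 to 6310 in TA, ranges that overlap. Among those that fell, the receptor of macrophage growth factor Csf1r was at -2.24 ± 0.38 (SE, limma adjusted p = 0.000817), the protease Ctss at -3.47 and the adaptor Tyrobp at -2.90, while the macrophage surface receptor Adgre1 was at -0.76 ± 0.34 (SE, limma adjusted p = 0.209).

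Pericyte and smooth muscle markers gave 7 lower and 0 higher of 9 (0 higher also unadjusted), led by Myh11 (-4.03), Rgs5 (-3.96) and Acta2 (-3.85). Their sums were 6186 to 10732 in EOM and 20455 to 34175 in TA. The 2 that did not pass, named after their values were seen, went different ways. Pdgfrb was at -0.51 (limma adjusted p = 0.506) and Abcc9 at 0.94 (limma adjusted p = 0.314). Fibroblast markers gave 5 of 10 higher, 0 lower (6 and 0 unadjusted) and 5 that did not pass. Their sums overlapped, at 125016 to 220650 in EOM and 70383 to 125334 in TA. Pi16 (5.55), Dpep1 (2.07) and Cd248 (2.02) led those called. Among the rest, named after their values were seen, the collagens Col1a1, Col1a2 and Col3a1 were at -0.84, -0.09 and 0.003. The proteoglycans Dcn and Lum were at 0.16 and 1.54 (limma adjusted p = 0.194 for Lum). Muscle fibre markers summed to 135 to 731 in EOM and 269 to 1056 in TA, with 1 of 5 tested lower, skeletal actin Acta1 (-1.66, limma adjusted p = 0.0292, a call lost in 9 of 22 alternatives), and 0 of 2 satellite cell markers passed (1 lower unadjusted). What each of these cell types contributes to the differences of the uptake genes was not tested.

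Of the wider pathway, 82 further genes in 5 lists had a named probe set and 70 were tested. The lists follow the roles of the genes. Their counts of adjusted calls with all arrays stand against 6.81% called lower and 4.05% called higher among all genes. These shares do not apply to the unadjusted counts.

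Among genes that act on lipases at the capillary wall, the 2 calls were both higher in EOM. None of the 8 tested fell, adjusted or not, and 4 were higher unadjusted, with a median of 0.69. Pcsk6, a proprotein convertase that cleaves secreted and surface proteins, lipases among them, had 630 at the lowest, 2303 at the median and 2754 at the highest in EOM, against 170, 351 and 566 in TA, and rose by 2.49 ± 0.36 (SE, limma adjusted p = 0.000157). Its relative Pcsk5 rose too (1.598 ± 0.26, SE, limma adjusted p = 0.000483). Angptl4, a secreted inhibitor of lipoprotein lipase, was at 0.74 ± 0.31 (SE, limma adjusted p = 0.188), and it passed without EOM 1, at 0.89 (limma adjusted p = 0.0386). Endothelial lipase, Lipg, was at 0.65 ± 0.42 (SE, limma adjusted p = 0.448), with signals of 84.6 ± 70.2 (SD) over EOM arrays, against 44.2 ± 30.1 (SD) over TA arrays. Leaving out EOM 1, TA 3 and TA 5 together gave 5 genes higher. Among all genes tested that setting called 1404 higher and 1465 lower, against 529 and 890 with all arrays.

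Lipoprotein receptors and cholesterol exporters went both ways, 1 higher and 2 lower of 7, with a median of -0.61. Lrp1, a large receptor that clears lipoprotein remnants, rose by 1.54 ± 0.35 (SE, limma adjusted p = 0.00750) and missed the threshold when arrays were centred on their medians, at 1.64 (limma adjusted p = 0.0883). The cholesterol exporter Abcg1 (-0.996, limma adjusted p = 0.0465) and the sorting receptor Sort1 (-0.96, limma adjusted p = 0.0338) fell, calls lost in 15 and 11 of 22 alternatives. By the mean of its probe sets Sort1 was only at -0.22 (limma adjusted p = 0.765), so its size depends on the probe set. Vldlr, the receptor for very-low-density lipoprotein, had a mean of 317 ± 144 (SD) over EOM arrays, against 547 ± 207 (SD) over TA arrays. Its log2 difference of -0.77 ± 0.31 (SE, limma adjusted p = 0.161) passed without EOM 1, at -0.95 (limma adjusted p = 0.01996).

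Of 16 relatives of the fatty acid carriers with a named probe set 10 were tested. Of these 10 carriers and acyl-CoA synthetases 0 fell (0 unadjusted) and 1 rose (2 unadjusted), Acsl3, which activates fatty acids (1.03 ± 0.30, SE, limma adjusted p = 0.0412), a call lost in 12 of 22 alternatives. Slc27a1, the main transport protein of muscle, was at 0.15 ± 0.31 (SE, limma adjusted p = 0.876), and Slc27a4 at 0.33 ± 0.26 (SE, limma adjusted p = 0.564). Fabp3, the carrier of heart and muscle fibres, averaged 110 ± 91.3 in EOM and 92.7 ± 77.3 in TA (SD, n = 6 each, limma adjusted p = 0.891). Of the other family members Fabp1, Fabp2, Fabp6 and Fabp7 were too dim to be tested.

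**Figure D4:**
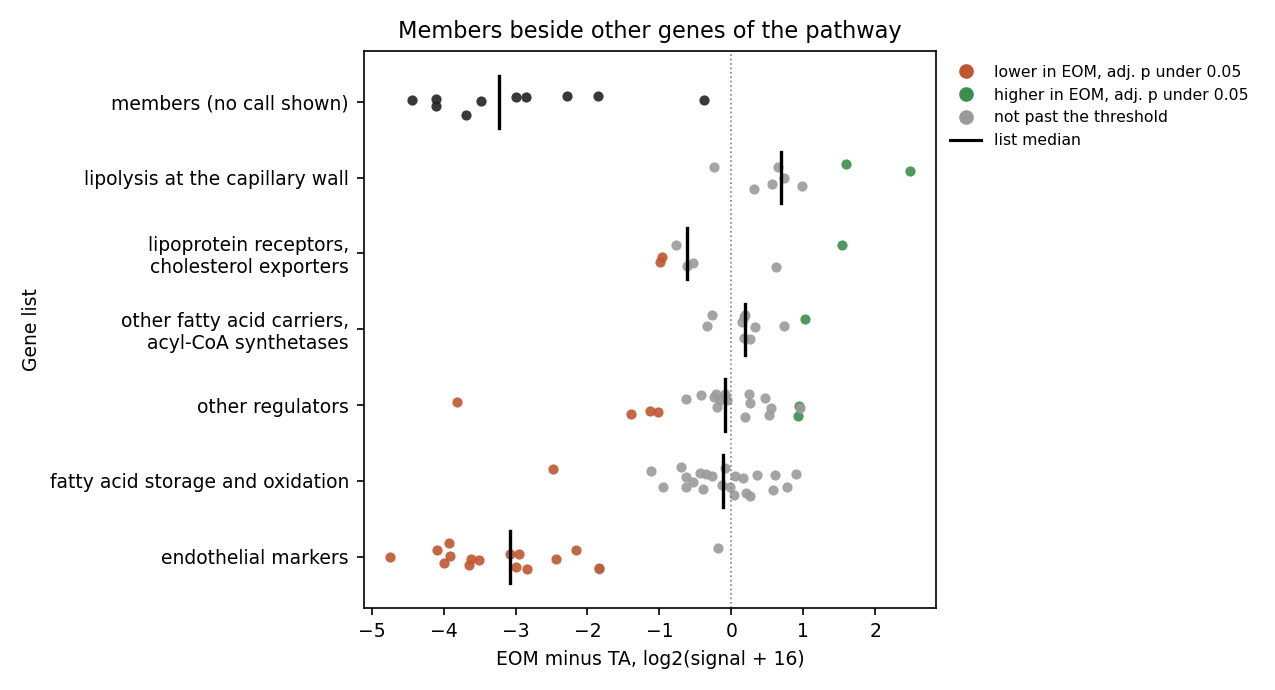
EOM minus TA on the log2(signal + 16) scale for every tested gene of the 10 uptake genes, of the 5 lists of other pathway genes and of the endothelial markers; black bars are list medians, and colours give the limma call, not shown for the 10. The medians of the uptake genes (-3.24) and of the endothelial markers (-3.08) lie far below that of the storage and oxidation genes (-0.11), where Mgll is the single call. Single genes spread widely, for the uptake genes from -4.44 to -0.38. The uptake genes were chosen with this contrast known, so nothing is read from the place of their median.

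Among other regulators 4 fell and 2 rose of 21, with a median of -0.08. The largest change was in Flt1, a receptor for the growth factors VEGFA and VEGFB, the second of which is known to raise fatty acid uptake by endothelium. Flt1 had 81.8 at the lowest, 125 at the median and 292 at the highest in EOM, against 803, 2560 and 3250 in TA (-3.81 ± 0.37, SE, limma adjusted p = 2.96e-06). Its partner receptor Nrp1 fell less and with little spread, at 1324 to 1680 in EOM and 3320 to 4994 in TA (-1.39 ± 0.21, SE, limma adjusted p = 0.000241). Vegfb itself, named after its value was seen, was at 0.96 ± 0.40 (SE, limma adjusted p = 0.181).

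Meox1, the relative of Meox2, fell by 1.14 (limma adjusted p = 0.0364) and Tcf4, a partner that helix-loop-helix factors such as TCF15 bind, fell by 1.02 (limma adjusted p = 0.0318), calls lost in 14 and 9 of 22 alternatives. The related partners Tcf3 and Tcf12, named after their values were seen, did not pass. Tcf3 was at -0.21 (limma adjusted p = 0.839) and Tcf12 at 0.27 (limma adjusted p = 0.769). The pair that rose, named for their small number after their values were seen, were Cebpa (0.94, limma adjusted p = 0.0332) and Cebpb (0.93, limma adjusted p = 0.0397), factors of adipocyte differentiation also active in other cells. Of 22 alternatives, 8 had 2 regulators called higher, 6 had 1 and 8 had 0. The relatives of Pparg had low signals and did not pass, Ppara at -0.16 ± 0.47 (SE, limma adjusted p = 0.923) and Ppard at -0.06 ± 0.36 (SE, limma adjusted p = 0.965). Nor did the coactivator Ppargc1a, at 0.25 ± 0.46 (SE, limma adjusted p = 0.860). For these 3 the sign changed in 2, 5 and 7 of 21 alternatives.

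Genes that store or burn fatty acids inside the cell gave a single call. Of 24 tested 1 fell and 0 rose (5 and 3 unadjusted), with a median of -0.11. The one call was Mgll, which releases fatty acids from monoacylglycerol, with 136 at the lowest, 239 at the median and 404 at the highest in EOM, against 726, 1438 and 3408 in TA (-2.48 ± 0.38, SE, limma adjusted p = 0.000252). Cpt1a, which admits fatty acids to the mitochondrion, was at 0.36 ± 0.27 (SE, limma adjusted p = 0.528), and the lipid droplet coat Plin2 at -0.63 ± 0.25 (SE, limma adjusted p = 0.147). When EOM 1 was left out, 2 of these genes were higher and 3 lower. Among all genes tested that setting called 1310 higher and 1378 lower, against 529 and 890 with all arrays.

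Profiles most like those of Gpihbp1 and Lpl were found by the root mean square difference over the 12 arrays, after each gene's own mean was taken off. This measure holds the difference between the groups, by which the genes were chosen, so the nearest genes are also genes with a similar difference. For Gpihbp1 these were Adgrf5, an adhesion receptor, at 0.45 log2 units, then Egfl7, a secreted endothelial protein, at 0.48, the pericyte gene Rgs5 at 0.52, the chloride channel Ano1 at 0.53 and von Willebrand factor, Vwf, at 0.53. The median over 13057 genes was 2.32. Closest among the other uptake genes were Scarb1 at 0.53, Tcf15 at 0.65 and Fabp5 at 0.69, while Lpl was at 1.38.

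For Lpl the nearest were the ubiquitin ligase Lnx1 at 0.25, Garre1 at 0.27, Frmd4b at 0.28, Nrep at 0.35 and Ap1s2, a clathrin adaptor subunit, at 0.37, against a median of 1.16. Among the uptake genes Fabp4 came closest to Lpl, at 0.59 by its brightest probe set, then Meox2 at 0.72 and Pparg at 0.74.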

How the data were processed

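Total RNA of each side population preparation was amplified in a linear protocol of Affymetrix and hybridized to a Mouse 430 version 2.0 array, per the labels' protocols. The deposited intensity values are MAS5 signals, 1 per probe set, made by the authors from the raw intensities, per the submitters' processing notes; every array had the same 2% trimmed mean of 150, read from the values. Genome build and annotation release behind the array are not given in the sources used here.

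From these values log2(signal + 16) was taken, control probe sets and the dimmest 40% by mean signal were left out, and limma 3.58.1 in R 4.3.3 (lmFit, eBayes with trend, two-sided, Benjamini-Hochberg over all 27022 probe sets, threshold 0.05) compared 6 EOM with 6 TA arrays. The procedure was tested on simulated data, with noise drawn independently for each value. Such data hold no differences in overall signal between arrays like those of EOM 1, TA 3 and TA 5. Probe sets with 1 symbol in the platform table (34945; 932 had several and 9160 none) were named, and a gene stands as its tested probe set with the highest mean. The genes described and all lists were chosen with earlier results of these data known. Besides those genes, named were up to 4 called genes per pathway list and 3 per marker list by size of the difference, a few fixed genes whatever their result, and the 5 genes most like Gpihbp1 and Lpl. The labels call the preparations independently separated and do not give the number of animals behind each. Both groups carry the same numbers, and the sample titles do not say whether same-numbered EOM and TA arrays belong together. Their deviations did not correlate alike (-0.32 to 0.16), which cannot decide the question. The numbers were not taken as pairs in the main fit. A fit with the number as a block called 1049 genes, against 1419. Promoters came from RefSeq (GRCm38.p6). Alternatives were other added constants (1 and 64), quantile normalization, median centring, other level filters, a replicate block, array weights, averaging probe sets per gene, and arrays left out.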

Additional observations from a re-analysis of the deposited data

Results flagged for a closer look

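In each group of 6 arrays, the gap between the most extreme array and its neighbour was divided by the range of the group. Gap and range were both taken on the log2 scale with the added constant, as for the differences above. The values printed beside the ratios are signals before the logarithm. Each ratio was set against Dixon's critical value, which chance passes in about 1 of 20 groups. Of 40 groups of the uptake genes' probe sets 3 passed, and of 100 other groups 7.

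Among the uptake genes, EOM 1 was high in 1 of the Cd36 probe sets, at 148 against 26.5 to 48.1 in the other EOM arrays (ratio 0.696), and in the dimmest Fabp4 probe set, at 13.3 against 1.1 to 2 (ratio 0.905). TA 3 was low in the dimmer Meox2 probe set, at 124 against 631 to 1170 in the other TA arrays (ratio 0.716).

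Of the other genes, EOM 1 was low in Pcsk6, at 630 against 2058 to 2754 (ratio 0.801). It was high in Pcsk5, at 3928 against 1631 to 2100 (ratio 0.713), in Meox1, at 201.8 against 53.3 to 75 (ratio 0.762), in Dpep1, at 53391 against 12202 to 15893 (ratio 0.821), and in Ppara, at 180.2 against 13.5 to 35.3 (ratio 0.708). In the sum of the fibroblast markers EOM 1 was high too, at 220650 against 125016 to 154224 (ratio 0.630). EOM 6 was low in the sum of the capillary endothelial markers, at 2111 against 3277 to 4034 (ratio 0.678). EOM 1 is the array with the highest median signal, and its part in these values was not tested.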

How the results depend on the processing

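All 9 uptake genes that were lower in EOM stayed so under each alternative that tested them. With the lowest 60% of probe sets left out, Pparg and Slc27a3 were not tested. The other 8 were called lower there, beside 891 genes called lower and 567 higher among all genes tested. Fewer genes are tested with that filter than the 13067 of the main fit, so these counts are not shares of 13067. Because the genes were chosen on this contrast, nothing is read from these counts. With 1 array left out in turn, called probe sets numbered 1580 to 4386 (2225 with all arrays) and called genes 1011 to 2688 (1419 with all), both highest without EOM 1, where 48.7% of called genes were higher in EOM, beside 37.3% with all. Calls then ran from 2 to 4 for lipolysis, 1 to 4 for receptors and exporters, 0 to 1 for carriers, 2 to 7 for regulators, 1 to 5 for storage and oxidation, and 0 to 1 each for adipocyte, muscle fibre and satellite cell markers. Quantile normalization gave 1 receptor, 0 carriers, 2 storage genes and 0 adipocyte markers. Median centring gave 1445 probe sets, 904 genes, 1 receptor, 0 carriers, 2 regulators, and 0 adipocyte and 0 muscle fibre markers. Without a level filter there were 1 receptor, 0 carriers, 3 regulators, 0 adipocyte markers and 1 satellite cell marker. The replicate block gave 1 receptor, 2 regulators, and 0 adipocyte and 0 muscle fibre markers. Array weights gave 5488 probe sets, 3264 genes (48.0% of them higher), 5 lipolysis genes, 5 receptors, 2 carriers, 7 storage genes and 1 satellite cell marker. Averaging probe sets per gene gave 0 carriers and 2 storage genes. Without EOM 1, TA 3 and TA 5 there were 4709 probe sets, 2869 genes (48.9% higher), 5 lipolysis genes, 5 receptors, 2 carriers, 5 storage genes, 2 muscle fibre markers and 1 satellite cell marker. The cause was not tested.

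The sign turned for Ppard with median centring (0.032), array weights (0.11) and without EOM 1, TA 3 and TA 5 (0.021), and for Ppargc1a with array weights (-0.31), averaged probe sets (-0.15) and without those 3 arrays (-0.32). With 1 array left out, Ppard ran from -0.24 to 0.16, Ppargc1a from -0.73 to 0.41, Fabp3 from -0.12 (without EOM 1) to 0.48 and Ppara from -0.54 to 0.12. None of these 4 genes passed the threshold with all arrays. Median centring moved the median over all genes to 0.06, against -0.04. Dim probe sets, Pparg and Slc27a3 among them, are limited by signal near the added constant.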
